A study of Mus musculus with 4 samples.

Results

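The transcripts described here are those of 44 mouse genes of the lysosome and of autophagy, all of them found among the 32285 genes counted in a droplet single-cell RNA series from bone marrow. They were chosen by name and comprise 3 transcription factors of the MiT/TFE family, 3 lysosomal membrane and channel proteins, 4 parts of the lysosomal proton pump, 8 cathepsins, 5 glycosidases, 4 lipid hydrolases and sphingolipid activators, 5 members of the ATG8 family, 9 genes of autophagosome initiation and conjugation, and 3 cargo receptors. Their levels were compared between blood lineages of the same mice and between 3 treatments.

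The 6 mice were female and carried Tppp3CreER and LSLTdTomato, a tamoxifen-inducible Cre recombinase under the Tppp3 gene and a red reporter that Cre switches on. Of these, 2 received tamoxifen at days 0 and 3 after birth, 2 received tamoxifen and rapamycin at those ages, and 2 received rapamycin alone at day 30, here called late rapamycin. All 3 treatments share the transgenes, so no mouse without them serves as a control, and between late rapamycin and the other treatments the drug, its timing and tamoxifen differ together. Marrow was stained for lineage antigens, Sca1, Kit, CD48, CD150 and EPCR, and the labels name stem and progenitor fractions as well as whole marrow. On each of 2 days, 1 mouse of each treatment was tagged with its own antibody hashtag, and the 3 were pooled in 1 library, so each treatment has n = 2 mice and the day is shared. The labels give the mice as 6 weeks old, whereas the series text speaks of isolation after 2 weeks.

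The lysosome is the acidic compartment in which cells break down protein, sugar chains and lipids. A proton pump, the V-ATPase, keeps it acidic, and cathepsins and other hydrolases do the cutting. Autophagy delivers the cell's own material to it: a ULK kinase complex and a Beclin 1 lipid kinase complex start a membrane, a conjugation system attaches ATG8 proteins to that membrane, and cargo receptors tie cargo to the ATG8 proteins. TFEB and its relatives TFE3 and MITF switch on many of these genes, and the kinase complex mTORC1, which rapamycin inhibits, holds TFEB and ULK1 in check.

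TFEB-family factors are known to bind a palindrome called the CLEAR element, whose core is the letters CACGTG. The window from 250 bases before to 50 after the start site was present for 36 of the 44 genes in RefSeq's table for GRCm38.p6, and the strings CACGTG and TCACGTGA, which read the same on both strands, were searched in it. CACGTG, which lies inside every TCACGTGA, was found in 11 of the 36 windows (30.6%), against 8.09% of the 27025 genes with a window. The longer TCACGTGA was found in 6 (16.7%), against 1.12%. By role, CACGTG was found in 2 of 3 windows of lysosomal membrane and channel genes, 2 of 3 of the proton pump, 3 of 6 of cathepsins, 2 of 5 of glycosidases and 2 of 6 of initiation and conjugation genes, and in 0 of 3 MiT/TFE factors, 0 of 3 lipid hydrolases and activators, 0 of 4 ATG8 genes and 0 of 3 cargo receptors. A match is a string of letters in this window and not a measured binding site. The stretches below, from RefSeq (GRCm38.p6), are shown because they hold matches of 7 of these 11 genes and cover both lysosomal and autophagy genes. Capitals mark CACGTG, and each stretch is given 5′ to 3′ on the strand of its gene.
Lamp1: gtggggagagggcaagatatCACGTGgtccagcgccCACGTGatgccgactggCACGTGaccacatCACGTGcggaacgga
Mcoln1: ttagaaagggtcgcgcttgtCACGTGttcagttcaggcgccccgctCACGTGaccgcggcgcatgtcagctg
Ctsa: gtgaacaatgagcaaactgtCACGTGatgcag
Ctsd: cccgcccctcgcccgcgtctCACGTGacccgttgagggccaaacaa
Gla: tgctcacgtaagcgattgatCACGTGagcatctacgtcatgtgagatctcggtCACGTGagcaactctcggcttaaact
Atp6v1a: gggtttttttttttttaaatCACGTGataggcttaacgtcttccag
Atg7: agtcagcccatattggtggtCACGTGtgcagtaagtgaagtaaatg

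These stretches lie between 247 bases and 1 base before a RefSeq start site of their gene. Those of Ctsa, Ctsd, Atp6v1a and Atg7 lie inside the annotated span of the gene, and that of Mcoln1 partly, so these start sites are internal. The annotated spans are chr6:114643097-114860614 for Atg7 and chr2:164832873-164841032 for Ctsa (GRCm38). The Lamp1 stretch is at chr8:13159080-13159160 (plus strand), ends 1 base before the start site and holds 4 matches. Further matches of Ctsd, at base -245, and of Ctsa, at base 6 after the start, lie outside the stretches shown. Mcoln1 has 2 in chr8:3500428-3500499 (plus), and Ctsa 1 in chr2:164833741-164833772 (plus). Ctsd has 1 in chr7:142387900-142387945 (minus), Gla 2 in chrX:134601174-134601252 (minus), Atp6v1a 1 in chr16:44139365-44139410 (minus) and Atg7 1 in chr6:114670944-114670989 (plus). Of these 7 genes, Lamp1 and Ctsa had their highest mean level in the monocyte gate, and Ctsa its lowest in the neutrophil gate. Atg7, Ctsd and Atp6v1a were highest in the neutrophil gate and Gla in the neutrophil progenitor gate. For Ctsd, Atp6v1a and Gla the top gate overlapped the second. Mcoln1 was not called in any lineage comparison, as given below.

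Cells were assigned to mice by their hashtag and to lineages by gates, each a minimum number of marker transcripts detected in the cell, none of them a gene described here. The 2 libraries held 25058 and 21409 barcodes, of which 19368 and 17863 carried 1 hashtag and passed the filters, or 5923 to 6972 cells and 24694966 to 40869653 transcript counts (UMIs) per mouse. Barcodes with several hashtags (11.7% and 10.31%) were left out, and from their share 5.853% and 5.157% of the rest are expected to hold 2 cells of the same mouse. Between the 2 days 126 barcode sequences were shared. The 8 gates that held at least 50 cells in every mouse are named for their markers: haematopoietic stem cell-like (HSC, 269 to 530 cells per mouse), multipotent or lymphoid-primed progenitor-like (695 to 1138), neutrophil progenitor-like (203 to 936), neutrophil-like (600 to 1331), monocyte-like (170 to 319), B lineage-like (148 to 1038), erythroid-like (481 to 643) and megakaryocyte-like (60 to 119). The leading genes of each gate include the markers that set it. Among those that did not set it were Mmp9 and Ifitm6 in the neutrophil gate, Vcan and S100a4 in the monocyte gate, Igkc and Ikzf3 in the B gate, Hbb-bs and Ank1 in the erythroid gate, Prss57 and Cst7 in the neutrophil progenitor gate, and Plxdc2 and Prkg1 in the HSC gate. Ctss is itself among the leading genes of the monocyte gate, although no gate used it. Counts were summed per mouse and gate, and levels are given as CPM, the count scaled to a common library size with edgeR's TMM factors. Summed markers are the exception: they are CPM of the plain library size, without TMM. Low levels need care, since neutrophil markers were also counted in other gates. Summed, they were at 159 to 393 CPM in the erythroid gate and 202 to 473 in the HSC gate. They reached up to 643 in the multipotent gate and up to 593 in the B gate, against at least 287900 in the neutrophil gate. Whether this RNA came from the droplet fluid, from droplets with 2 cells or from the gated cells themselves was not tested.

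The mice come from the table that ties hashtags to treatments. In the samples' labels mice carry numbers which, if they were hashtag numbers, would exchange the tamoxifen mice and the tamoxifen and rapamycin mice, and the table's name for the third treatment, Ctrl, was read as late rapamycin. The mouse labelled late rapamycin replicate 1 stood apart: it had 936 cells in the neutrophil progenitor gate against 203 to 340 in the other mice, 1331 in the neutrophil gate against 600 to 833, and 148 in the B gate against 575 to 1038.

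Between lineages, most of the lysosome and autophagy transcripts were highest in the mature myeloid gates, the autophagy transcripts mainly in the neutrophil gate. In the monocyte gate 33 of the 44 genes were higher than in the HSC gate and 4 lower, with all 8 cathepsins and all 4 lipid hydrolases and activators among the higher. The autophagy roles had fewer calls there. Of 5 ATG8 genes 3 were higher and 1 lower, of 9 initiation and conjugation genes 5 and 1, and of 3 cargo receptors 1 and 1. With plain library sizes, without TMM, these became 1 and 1, 1 and 4, and 0 and 2. In the neutrophil gate 30 were higher and 2 lower, with the largest differences in Ctsh, Wipi1, Map1lc3a, Atg7 and Neu1. The megakaryocyte gate showed the opposite balance, with 4 higher and 15 lower, and the erythroid gate was split at 18 higher and 16 lower. Each gate was compared with the HSC gate of the same mice in 1 edgeR quasi-likelihood fit with the mouse as a block (6 mice, 48 sums, Benjamini-Hochberg adjusted p under 0.05 over 12339 genes).

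Because lineages differ in most genes, these counts are read against all genes. In the monocyte gate 34.3% of all genes tested were higher and 29.2% lower, and the median log2 difference of the 44 was 1.17 against 0.04 for all genes. In the neutrophil gate 35.7% of all genes were higher and 45% lower, and the medians were 1.33 and -0.21. For the neutrophil progenitor gate the 44 gave 19 higher and 10 lower (all genes 37.8% and 33.9%), and for the B gate 18 and 13 (33.6% and 31.5%), with medians of 0.11 and 0.20. In the multipotent gate 7 were higher and 7 lower (19.5% and 12.6%). The erythroid count stood beside 40.2% and 41.3% of all genes, and the megakaryocyte count beside 23.2% and 18.1%, with medians of 0.00 and -0.30. The overall test across the 8 gates called 99% of all genes, so a call in it separates no gene from the rest.

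The direction of the smaller differences depends on the scaling. A few genes take much of the RNA in neutrophils, and without TMM (plain library sizes) the median of all genes in the neutrophil gate moved from -0.21 to -1.32. The neutrophil count then became 22 higher and 17 lower, with Ctsz, Lipa and Atg16l1 called in the opposite direction. Plain library sizes gave 26 and 8 in the monocyte gate, 15 and 22 in the neutrophil progenitor gate, 13 and 15 in the B gate, 8 and 26 in the erythroid gate (Gabarapl2 opposite) and 3 and 13 in the multipotent gate. DESeq2 gave 31 and 2 for neutrophils, 29 and 5 for monocytes, 17 and 16 for neutrophil progenitors, 13 and 20 for erythroid cells and 4 and 9 for the multipotent gate. Without late rapamycin replicate 1 the monocyte count was 32 and 3 and the neutrophil count 29 and 3. The calls lost without that mouse were Ctsl, Gaa and Atg12 in the monocyte gate, Lipa in the neutrophil gate, Tfe3 and Atg5 in the neutrophil progenitor gate, and Ctsz, Gaa and Nbr1 in the megakaryocyte gate.

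**Figure D1:**
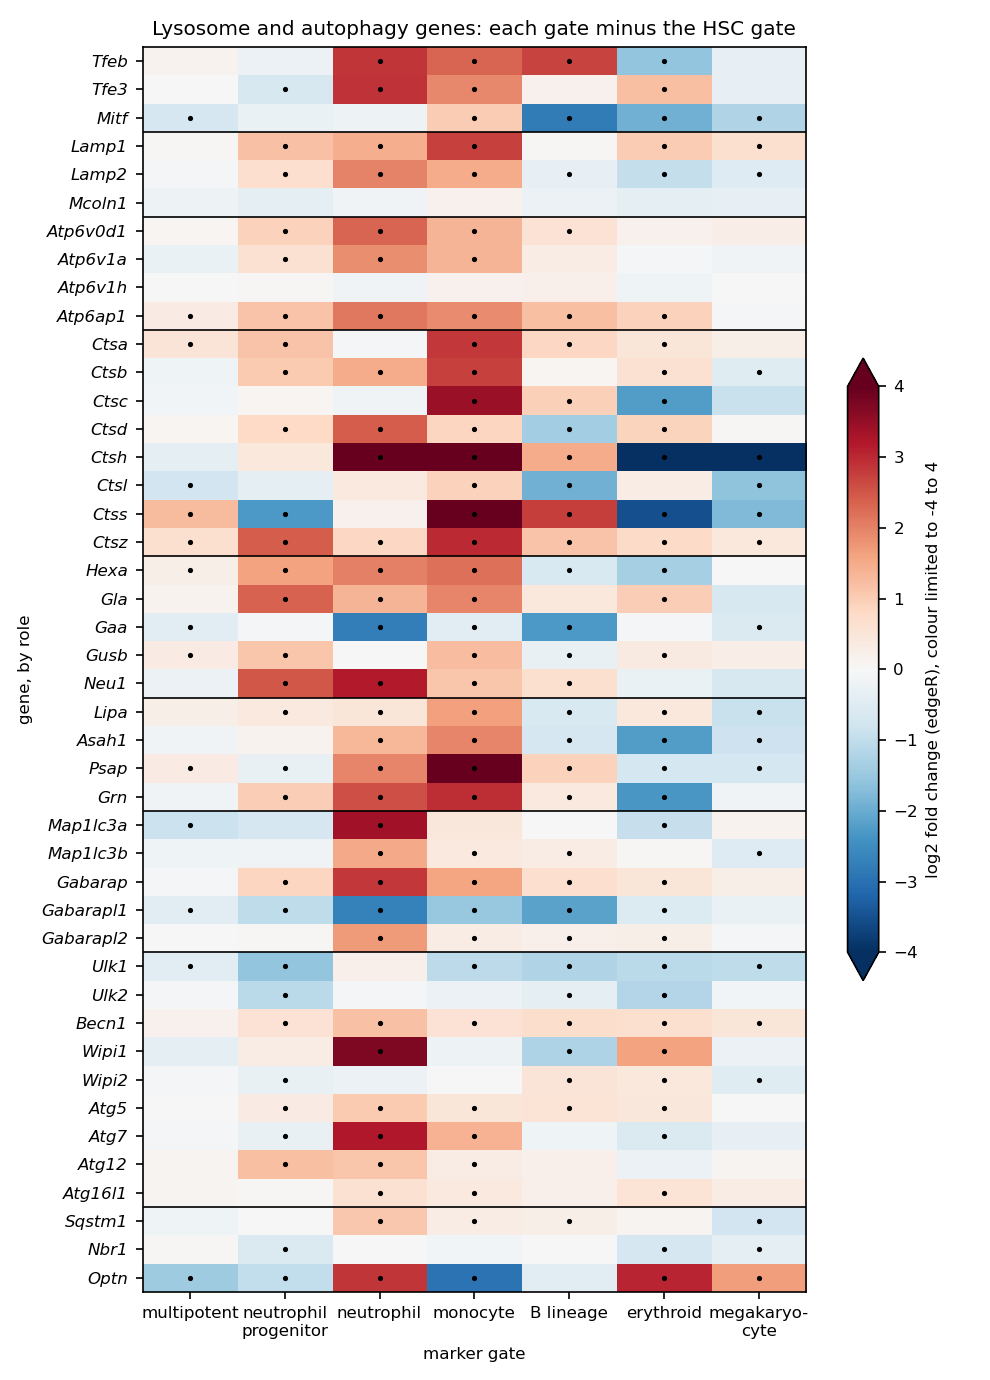
Log2 fold change (edgeR) of each of the 44 genes in 7 gates against the HSC gate of the same 6 mice, with genes ordered by role and black lines between roles. Dots mark an adjusted p under 0.05, and red fills most of the neutrophil and monocyte columns (30 and 33 genes higher). In the megakaryocyte column more genes were called lower than higher (15 and 4), and in the erythroid column 16 and 18.

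Ranked by mean level over the 6 mice, 19 of the 44 genes (43.2%) were highest in the neutrophil gate, against 23.6% of all genes tested, and 16 (36.4%) in the monocyte gate, against 8.3%. For 11 (25%) and 10 (22.7%) of the 44, respectively, no mouse of the top gate overlapped any mouse of the gate ranked second, against 12.7% and 2.16% of all genes. These ranks rest on TMM scaling. Becn1, Atg5 and Sqstm1 are among the 11. Their neutrophil differences from the HSC gate were largely lost with plain library sizes, as given below. Gaa, Gabarapl1 and Ulk2 ranked highest in the HSC gate, Gla and Atg12 in the neutrophil progenitor gate, Atp6v1h and Wipi2 in the B gate, Nbr1 in the multipotent gate and Optn in the erythroid gate, and for each of these 9 the top gate overlapped the second. No gene ranked highest in the megakaryocyte gate. The genes named for these ranks, and Ctsc, Ctsb, Ctsd, Ctsl, Lipa, Gaa, Ulk1, Becn1, Wipi2, Atg5, Atg16l1 and Atp6v1h below, were picked after their values were seen where the naming rule did not already give them.

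The transcription factors differed among themselves. Tfeb, the regulator after which the lysosomal program is usually named, was at 8.70 to 15.6 CPM in the HSC gate (median 12.5). It reached 67.9 to 115 CPM in the neutrophil gate (log2 difference 2.87 ± 0.15, SE), 54.1 to 106 in the B gate (2.72 ± 0.15) and 43.5 to 69.9 in the monocyte gate (2.34 ± 0.17), and fell to 2.11 to 5.71 in the erythroid gate (-1.57 ± 0.19). The neutrophil and B gates overlapped each other, and every mouse of both lay above every HSC-gate value. Tfe3, its X-linked relative, was at 7.213 to 13.04 CPM in the HSC gate and 58.7 to 85.9 in the neutrophil gate (2.88 ± 0.16), with no overlap. Unlike Tfeb it was higher in the erythroid gate (17.8 to 23.7 CPM, 1.19 ± 0.16) and was not called in the B gate (0.16, adjusted p = 0.522). Mitf, the relative best known from pigment cells and mast cells, was called higher than in the HSC gate (38.5 to 57.9 CPM) in the monocyte gate only, at 60.4 to 107 CPM (1.02 ± 0.13). It was lower in the B gate (4.39 to 14.5 CPM, -2.79 ± 0.19), the erythroid gate (-1.91 ± 0.13) and the megakaryocyte gate (-1.21 ± 0.19).

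Of the membrane proteins, Lamp1, a heavily glycosylated protein of the lysosomal membrane, was lowest in the HSC gate by median (77.6 to 91.4 CPM). It was higher in 5 gates: 471 to 691 CPM in the monocyte gate (2.75 ± 0.08), 204 to 259 in the neutrophil gate (1.45 ± 0.08), 162 to 236 in the neutrophil progenitor gate (1.17 ± 0.08), 169 to 174 in the erythroid gate (1.03 ± 0.07) and 112 to 152 in the megakaryocyte gate (0.66 ± 0.09). Lamp1 was the only membrane, pump or lipid-degrading gene called higher in the megakaryocyte gate. Lamp2, which also serves chaperone-mediated autophagy, had its highest levels in the neutrophil gate (350 to 549 CPM, 1.97 ± 0.09) and was lower in the erythroid gate (44.2 to 58.2 CPM, -0.96 ± 0.09). Mcoln1, the lysosomal calcium channel TRPML1, stayed between 2.54 and 20.3 CPM in every mouse and gate, and was called in none of the 7 comparisons (adjusted p from 0.0637 to 0.576).

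The proton pump followed the myeloid order, except for 1 subunit. Atp6v0d1, a stalk subunit of the membrane sector, rose from 34.2 to 44.3 CPM in the HSC gate to 153.1 to 248.6 in the neutrophil gate (2.32 ± 0.12). Atp6v1a, the catalytic subunit, went from 50.6 to 57.7 CPM to 144 to 405 (1.85 ± 0.15), the upper end being late rapamycin replicate 1 and the other 5 mice lying at or below 169. Atp6ap1, an accessory protein of pump assembly, was higher in every gate except the megakaryocyte gate, with 92.7 to 150 CPM in neutrophils (2.10 ± 0.11) against 24.6 to 30.4. Atp6v1h, a regulatory subunit, was called in no gate and spanned 33.1 to 73.3 CPM over all mice and gates.

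All 8 cathepsins were higher in the monocyte gate, by a median of 2.92. Ctss, the cathepsin that trims the invariant chain in antigen-presenting cells, was at 10.3 to 31.3 CPM in the HSC gate (median 13.6). In the monocyte gate it reached 566 to 1619 CPM (median 874.5, 5.89 ± 0.17), in the B gate 58.0 to 168 (2.77 ± 0.18) and in the multipotent gate 27.2 to 60.3 (1.27 ± 0.18). The monocyte values did not overlap any other gate. In the multipotent gate the upper end was late rapamycin replicate 1, with the other mice at 27.2 to 37.8. In the neutrophil progenitor gate Ctss was lower than in the HSC gate (1.11 to 6.26 CPM, -2.29 ± 0.28), as it was in the erythroid gate (0.667 to 1.86 CPM, -3.52 ± 0.29), and in mature neutrophils it was not called (0.18, adjusted p = 0.495).

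Ctsh, an aminopeptidase of the family, was high in both mature myeloid gates, with 242 to 442 CPM in monocytes (5.04 ± 0.21) and 143 to 240 in neutrophils (4.18 ± 0.22) against 8.81 to 15.7 in the HSC gate. In the megakaryocyte gate 1 mouse held 2 UMIs of it and the other 5 none, so no fold is given there. Ctsz, a carboxypeptidase, was called higher in all 7 gates, from 26.5 to 49.6 CPM in the HSC gate to 218 to 430 in monocytes (3.00 ± 0.12) and 151 to 348 in neutrophil progenitors (2.43 ± 0.11). Its difference in the mature neutrophil gate (0.82 ± 0.13) turned to -0.31 with plain library sizes. The megakaryocyte call for Ctsz (0.42, adjusted p = 0.0301) was lost without late rapamycin replicate 1 (0.36, adjusted p = 0.0652), with DESeq2 (0.32, adjusted p = 0.117) and with plain library sizes (0.28, adjusted p = 0.130). Ctsc, which activates the serine proteases of neutrophil granules, was at 271 to 1021 CPM in monocytes against 34.8 to 39.1 in the HSC gate (3.47 ± 0.23) and at 37.8 to 47.3 in neutrophil progenitors. Ctsd, an aspartic protease, had its highest levels in neutrophils (220 to 655 CPM, 2.42 ± 0.15) and was lower than in the HSC gate in B cells (-1.39 ± 0.19). Late rapamycin replicate 1 set the upper ends for Ctsz in neutrophil progenitors, Ctsc in monocytes and Ctsd in neutrophils. The other mice reached at most 176, 414 and 316 CPM there.

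**Figure D2:**
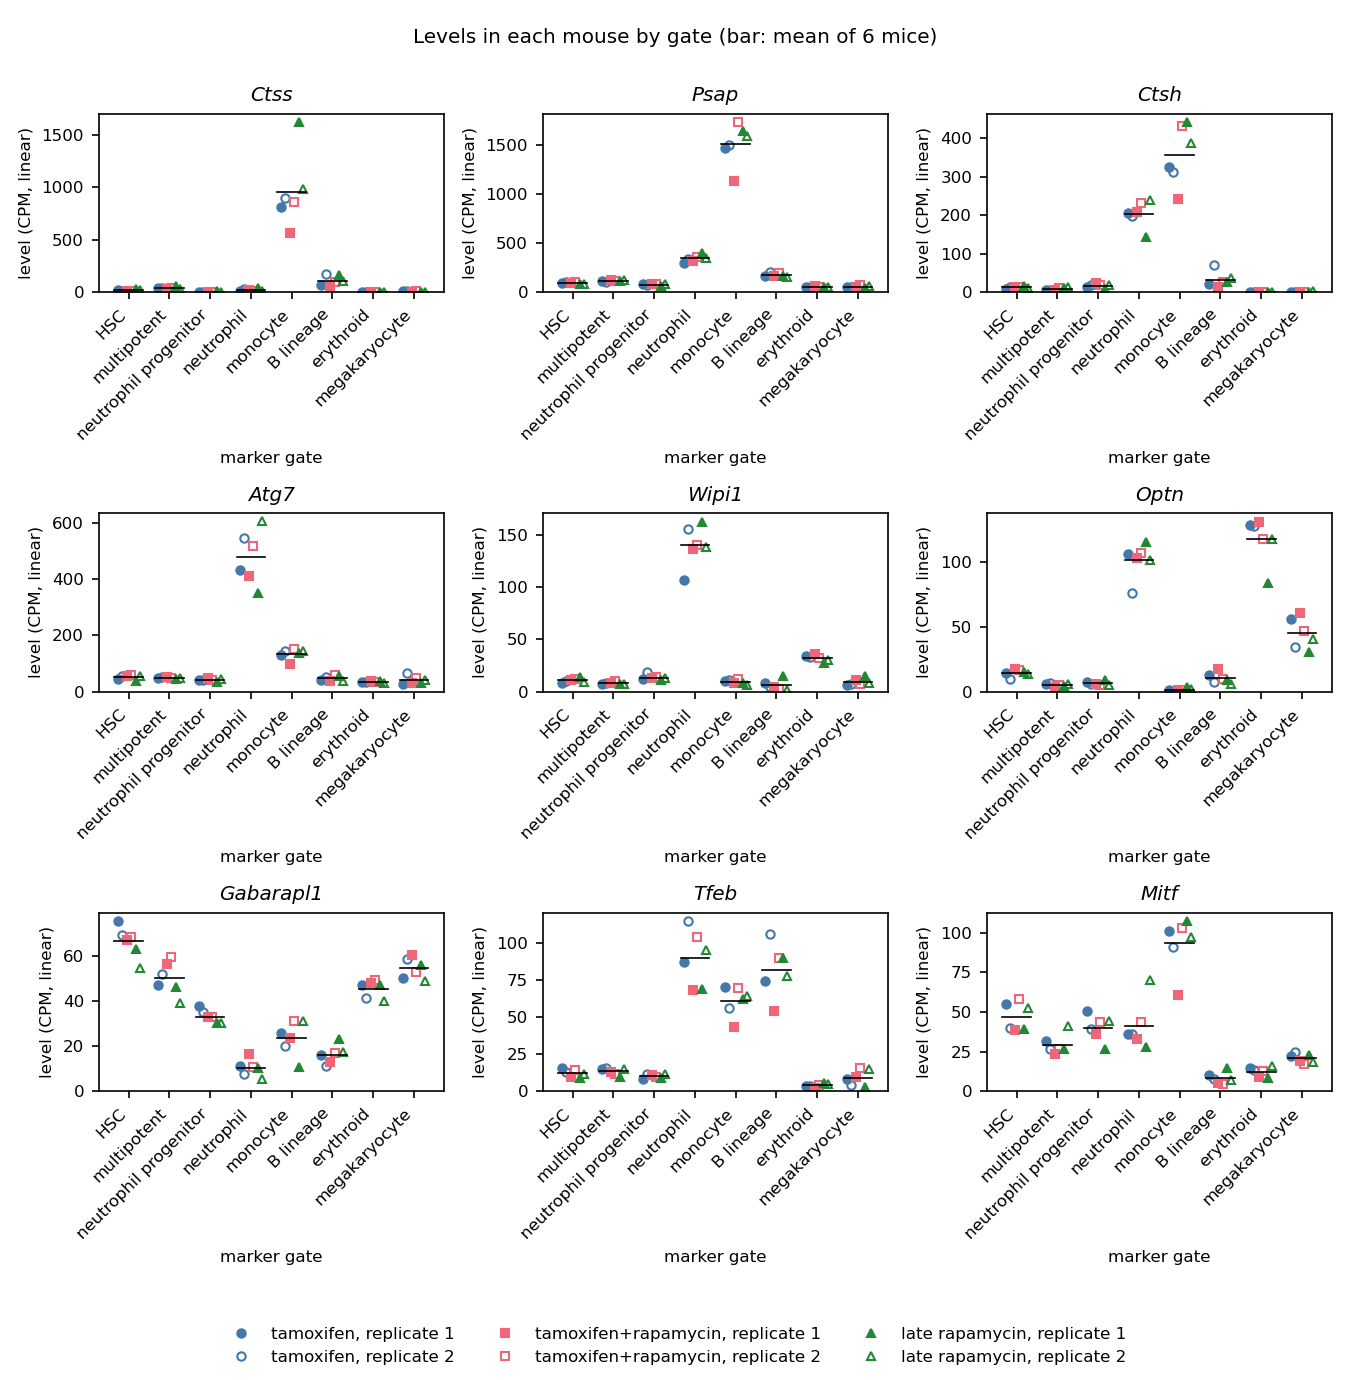
Levels (CPM, linear axes from 0) of 9 genes in each of the 6 mice by gate, with colours and shapes for the treatments, filled symbols for day 1, open symbols for day 2, and a bar for the mean of the 6 mice. Ctss and Psap stand out in the monocyte gate, Atg7 and Wipi1 in the neutrophil gate and Optn in the erythroid and neutrophil gates, while Gabarapl1 is highest in the HSC gate.

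Glycosidases, which take sugar chains apart, split between progenitors and mature cells. Neu1, a sialidase, was at 5.47 to 11.1 CPM in the HSC gate and rose to 34.6 to 82.5 in neutrophil progenitors (2.48 ± 0.18) and 73.4 to 83.4 in neutrophils (3.17 ± 0.18). Its upper end in neutrophil progenitors was late rapamycin replicate 1, with the other mice at 34.6 to 45.9. Hexa, the alpha chain of the enzyme lacking in Tay-Sachs disease, was higher in monocytes (145 to 212 CPM, 2.21 ± 0.10) than in the HSC gate (33.3 to 43.1) and lower in the erythroid gate (12.7 to 17.9, -1.31 ± 0.10). Gusb, a glucuronidase, was at 93.6 to 128 CPM in monocytes (1.24 ± 0.10) and 83.4 to 119 in neutrophil progenitors (1.10 ± 0.09) against 35.3 to 60.1 in the HSC gate, and was not called in mature neutrophils (-0.02, adjusted p = 0.861). Gaa, which breaks down glycogen in the lysosome, was the glycosidase with its highest median in the HSC gate (17.9 to 33.7 CPM) and was lower in neutrophils (0 to 8.715 CPM, 0 to 8 UMIs per mouse, -2.77 ± 0.26) and in B cells (-2.30 ± 0.22).

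The lipid-degrading genes were called higher in all 4 cases in both mature myeloid gates, or in 3 in the neutrophil gate without late rapamycin replicate 1 (Lipa at 0.33, adjusted p = 0.0526). Psap, the precursor of the saposins that help enzymes reach sphingolipids, went from 80.9 to 98.9 CPM in the HSC gate to 1131 to 1737 in monocytes (4.07 ± 0.09) and 295 to 401 in neutrophils (1.94 ± 0.09). These 3 gates did not overlap. Grn, a progranulin taken to the lysosome with prosaposin, reached 170 to 318 CPM in monocytes (2.96 ± 0.14) against 25.9 to 34.2. Asah1, the acid ceramidase, reached 153 to 211 against 40.3 to 51.3 (1.97 ± 0.10). In the erythroid gate Asah1 (8.82 to 11.2 CPM, -2.23 ± 0.11), Grn (-2.32 ± 0.19) and Psap (-0.72 ± 0.09) were lower, and Lipa, the acid lipase for cholesteryl esters, was higher by 0.42 ± 0.13, a difference that came to -0.04 with plain library sizes. Lipa's neutrophil difference of 0.50 ± 0.15 likewise turned to -0.62.

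In the ATG8 family, whose proteins decorate the autophagosome membrane, 4 of 5 genes were higher in the neutrophil gate. Gabarap went from 82.6 to 107 CPM in the HSC gate to 583 to 940 in neutrophils (2.84 ± 0.10), and Map1lc3a from 7.21 to 11.2 to 62.3 to 223 (3.35 ± 0.23). The upper end for Map1lc3a was late rapamycin replicate 1, with the other mice at 62.3 to 83.3. Gabarapl2 was at 160 to 267 CPM against 49.7 to 69.7 (1.70 ± 0.08), and Map1lc3b, the usual marker protein of autophagosomes, at 293 to 408 against 99.7 to 143 (1.52 ± 0.09). None of these 4 overlapped between the 2 gates. No share of all genes stands beside such comparisons of single genes with the HSC gate by overlap. In the neutrophil gate 35.7% of all genes were called higher and 45% lower. With plain library sizes 4 ATG8 genes were still called higher there and 1 lower. The fifth, Gabarapl1, went the other way, from 55.0 to 75.9 CPM in the HSC gate to 5.52 to 16.4 in neutrophils (-2.69 ± 0.16), 10.7 to 31.2 in monocytes (-1.51 ± 0.15) and 11.3 to 23.2 in B cells (-2.14 ± 0.14), again without overlap.

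Genes of initiation and conjugation were called higher in neutrophils in 6 of 9 cases, but with plain library sizes 2 were called higher and 4 lower. Atg7, the E1-like enzyme of both conjugation pathways, was at 38.3 to 57.4 CPM in the HSC gate and 349 to 605 in neutrophils (3.21 ± 0.11), followed by 96.9 to 151 in monocytes (1.40 ± 0.12). Wipi1, which reads the lipid made by the Beclin 1 complex, was at 8.13 to 13.9 CPM in the HSC gate and 107 to 163 in neutrophils (3.73 ± 0.14), and it was also higher in the erythroid gate (27.2 to 35.8 CPM, 1.60 ± 0.15). Atg12, a ubiquitin-like protein, was higher in neutrophil progenitors (51.8 to 82.2 CPM, 1.20 ± 0.11) than in the HSC gate (25.6 to 32.5). Its value in mature neutrophils (1.11 ± 0.12) came to 0 within rounding with plain library sizes, and those of Becn1 (1.17) and Atg5 (1.05) came to 0.06 and -0.05. The kinase genes did not follow. Ulk1 was lower than in the HSC gate (30.4 to 35.2 CPM) in 6 of the 7 gates, from -0.45 ± 0.14 in the multipotent gate to -1.57 ± 0.16 in neutrophil progenitors, and was not called in neutrophils (0.20, adjusted p = 0.230). Ulk2 was lower in 3, by up to 1.18 in the erythroid gate (-1.18 ± 0.11).

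The cargo receptors each had a pattern of their own. Optn, which links ubiquitin-tagged cargo such as damaged mitochondria to ATG8 proteins, was at 9.45 to 17.6 CPM in the HSC gate. It rose to 83.6 to 131 in the erythroid gate (3.06 ± 0.15), 75.7 to 115 in neutrophils (2.86 ± 0.16) and 30.5 to 60.6 in megakaryocytes (1.67 ± 0.20). In the monocyte gate it was at 0 to 3.28 CPM (0 to 4 UMIs per mouse, -2.96 ± 0.40), below every other gate, and in the multipotent gate at 3.66 to 6.88 (-1.43 ± 0.20). Sqstm1, or p62, reached 106 to 150 CPM in neutrophils against 53.1 to 69.7 (1.07 ± 0.09), a difference of -0.04 with plain library sizes, and was lower in megakaryocytes (-0.78 ± 0.13). Nbr1, a receptor with a similar domain plan, was highest in the multipotent and HSC gates by mean and lower in the erythroid (30.7 to 40.7 CPM, -0.68 ± 0.11), neutrophil progenitor (-0.59 ± 0.12) and megakaryocyte gates (-0.36 ± 0.15).

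Further genes of the same pathways were counted in the same way. Of 39 other lysosomal genes tested, 31 were higher and 7 lower in monocytes (79.5% and 17.9%, all genes 34.3% and 29.2%), and 24 and 9 in neutrophils (61.5% and 23.1%, all genes 35.7% and 45%). Cd63, a tetraspanin of late endosomes, departed from it: it was at 165 to 204 CPM in the HSC gate, 542 to 654 in neutrophils (1.75) and 7.25 to 23.0 in monocytes (-3.64), with no overlap. Sort1, a sorting receptor, was at 288 to 372 CPM in neutrophils against 38.3 to 62.8 (2.63), and Laptm5 at 617 to 873 in monocytes against 240 to 270 (1.55). Of 32 other autophagy genes, 17 were higher and 6 lower in neutrophils (53.1% and 18.8%), and 7 and 17 in erythroid cells (21.9% and 53.1%, all genes 40.2% and 41.3%). In monocytes 10 and 4 of them were called (31.2% and 12.5%), a share of higher calls near that of all genes (34.3%). Atg3, the enzyme that acts after Atg7 on ATG8 proteins, was at 333 to 499 CPM in neutrophils against 46.8 to 56.3 (2.91). Tax1bp1, a cargo receptor, was at 607 to 750 CPM there against 250 to 327 (1.14), and Rubcn, known as a brake on autophagosome maturation, was higher in B cells (58.4 to 139 CPM against 18.3 to 24.8, 2.23). Of 14 genes that control TFEB at the lysosome, 11 were higher and 2 lower in neutrophils (78.6% and 14.3%), among them Lamtor4 (493 to 616 CPM against 52.2 to 67.8, 3.18), Lamtor2 (1.45) and Ywhab (1.61). The first 2 encode parts of the Ragulator complex that anchors mTORC1, and the third a 14-3-3 protein.

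Between treatments, none of the 44 genes was called in any of the 8 gates for any of the 3 comparisons, neither by edgeR nor by DESeq2. The per-gate edgeR fits held treatment and day over 6 mice. At an unadjusted p under 0.05 there were 13 of 334 gene and gate pairs for tamoxifen and rapamycin against tamoxifen, 34 for late rapamycin against tamoxifen and 28 for tamoxifen and rapamycin against late rapamycin. These are 3.89%, 10.2% and 8.38% of the pairs, against 5.48%, 9.16% and 9.16% over all genes and gates. The comparisons share mice. With 2 mice per treatment a missed threshold does not show equal levels. The counts rest on single mice: with late rapamycin replicate 2 left out, so that replicate 1 stood alone for its treatment, 49 pairs outside the HSC gate passed for late rapamycin against tamoxifen and 47 for tamoxifen and rapamycin against late rapamycin. Over all genes in those 7 gates, calls then rose from 280 to 7151 and from 144 to 7019. Without replicate 1 instead, 3 and 2 pairs passed, with 1319 and 962 calls over all genes. In the HSC gate, Map1lc3b passed for late rapamycin against tamoxifen without replicate 1 (-0.48, adjusted p = 0.0192), and its value was -0.12 without tamoxifen replicate 2 and -0.19 without late rapamycin replicate 2. Among all genes in the HSC gate the 3 comparisons called 0.187%, 0.755% and 1.18%, so few genes of any kind passed. In the other gates the shares of all genes called were 0.059%, 0.228% and 0.27% in the multipotent gate, 0.71%, 1.7% and 0.588% in the erythroid gate, 0.112%, 0.859% and 0.523% in the megakaryocyte gate, 0.168%, 0% and 0.0691% in the B gate, 0.0233%, 0.0116% and 0% in the monocyte gate, 0%, 0.0116% and 0% in the neutrophil gate, and 0% throughout in the neutrophil progenitor gate.

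In the HSC gate 43 genes were tested, with 2, 3 and 8 of them at an unadjusted p under 0.05 in the 3 comparisons, against 5.83%, 11.6% and 13.3% of all genes. The median log2 differences of the 43 were 0.06, 0.01 and 0.06, against 0.00 for all genes in each. Becn1, the scaffold of the lipid kinase complex that starts autophagosomes, had the smallest adjusted p of the 44 genes in any treatment comparison. Its levels were 35.2 and 48.9 CPM with tamoxifen, 23.2 and 32.4 with tamoxifen and rapamycin together, and 54.8 and 48.3 with late rapamycin (replicates 1 and 2 in each). Both tamoxifen and rapamycin mice lay below all 4 others. With 2 mice per treatment such an order can arise by chance. No share of all genes stands beside it, here or for the genes below. Against late rapamycin the log2 difference was -0.77 ± 0.20 (edgeR adjusted p = 0.0585), with -1.18 on day 1 and -0.53 on day 2, and against tamoxifen alone -0.58 ± 0.21 (adjusted p = 0.611). The first of these was called without the filter on low counts (-0.79, adjusted p = 0.0122), and not with DESeq2 (adjusted p = 1), stricter gates (adjusted p = 0.421) or without the day in the fit (adjusted p = 0.148). Leaving out each mouse moved it between -0.54 and -1.20, without late rapamycin replicate 1 and replicate 2, and it was called in 3 of these 6 fits. With the treatments of the label numbers it would be -0.19 (adjusted p = 0.756). The value for Becn1 against tamoxifen was -0.32 without tamoxifen replicate 2. In the multipotent gate all 6 mice lay between 41.4 and 51.4 CPM.

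Lipa was at 29.8 and 23.8 CPM with tamoxifen, 38.5 and 33.3 with both drugs, and 27.8 and 23.7 with late rapamycin, again with the second treatment outside the range of the other 2 (0.44 ± 0.21 against tamoxifen, adjusted p = 0.837). Optn was at 14.2 and 9.45, 17.6 and 16.4, and 14.8 and 13.4 CPM in the same order, and Neu1 at 10.8 and 11.1, 8.82 and 5.47, and 8.70 and 7.67. For these the log2 differences against tamoxifen were 0.58 and -0.69, on 21 to 36 and 11 to 27 UMIs in the 4 mice compared. Optn was at 0.33 without tamoxifen replicate 2, Neu1 at -0.34 without tamoxifen and rapamycin replicate 2, and stricter gates gave 1.14 and -1.37. If the mice carried the treatments of the label numbers, the signs of all 4 differences against tamoxifen would be exchanged.

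Late rapamycin mice had the lowest Nbr1 in the HSC gate, at 48.7 and 49.2 CPM against 57.6 and 64.1 with tamoxifen and 68.1 and 64.2 with tamoxifen and rapamycin. The difference between the last and late rapamycin was 0.46 ± 0.15 (adjusted p = 0.167). The same order without overlap was seen for Nbr1 in the multipotent gate (48.9 and 54.1 CPM with late rapamycin, 60.5 to 68.6 in the other 4 mice) and in the megakaryocyte gate (30.5 and 32.0 against 46.2 to 56.0). Both gates hold cells of the same mice and lie outside the naming rule. The other gates are not given for Nbr1, and no share of all genes stands beside this order. Map1lc3b was at 122 and 99.7 CPM with late rapamycin, 127 and 143 with tamoxifen (-0.36 ± 0.12, adjusted p = 0.213) and 137 and 120 with both drugs, and Gabarapl1 at 63.5 and 55.0, 75.9 and 69.4 (-0.34 ± 0.14, adjusted p = 0.348), and 67.3 and 68.8. Gaa was at 25.2 and 17.9 CPM with late rapamycin and 33.7 and 28.25 with both drugs (0.60 ± 0.23, adjusted p = 0.231). Gusb was at 43.5 and 60.1 CPM with late rapamycin and 47.4 and 37.4 with tamoxifen, so its groups overlapped. In the multipotent gate Gusb was at 67.0 and 66.9 CPM with late rapamycin and 50.4 to 53.2 in the other 4 mice (0.38 ± 0.09 against tamoxifen, adjusted p = 0.190). Tfeb was at 15.6 and 13.1 CPM with tamoxifen, 9.62 and 14.1 with both drugs, and 8.70 and 11.8 with late rapamycin in the HSC gate, on 10 to 37 UMIs per mouse, and was not called in any comparison.

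**Figure D3:**
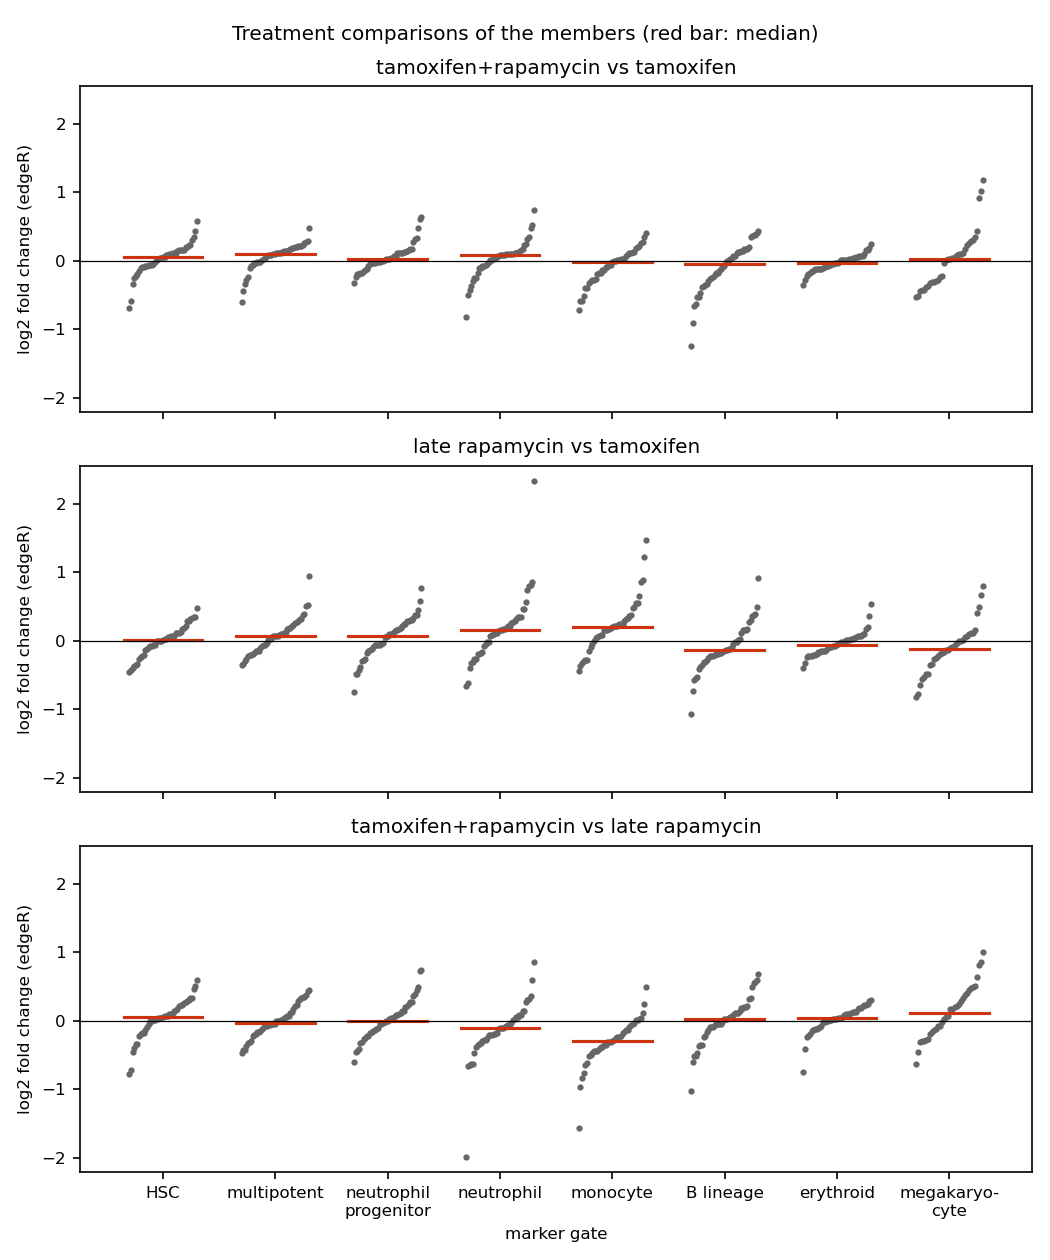
Log2 fold change (edgeR) of each gene tested, 1 point per gene and sorted within each of the 8 gates, for the 3 treatment comparisons, with a red bar at the median. No point passed the threshold, the medians stay between -0.30 and 0.21, and the largest points are Ctsc in the neutrophil gate (2.33 and -1.99).

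Outside the HSC gate, Ctsh in the B gate had the smallest p for tamoxifen and rapamycin against tamoxifen (-1.25 ± 0.25, adjusted p = 0.116). Its levels were 20.5 and 70.7 CPM with tamoxifen, 11.93 and 25.97 with both drugs and 26.07 and 35.5 with late rapamycin. The drop was seen within each day, but day 2 lay above day 1 in every treatment and the groups overlapped. Without late rapamycin replicate 1 or 2 in the fit, Ctsh, Ctss and Ctsc in the B gate passed the threshold for this comparison, while calls over all genes outside the HSC gate rose from 111 to 1657 and 1592. In the monocyte gate 31 of 41 genes lay above 0 for late rapamycin against tamoxifen (median 0.21) and 34 of 41 below 0 for tamoxifen and rapamycin against late rapamycin (median -0.30), next to 49.5% of all genes above 0 in the first and 49.2% below 0 in the second. Both comparisons use the late rapamycin mice. Without replicate 1 of these, a setting chosen after the data were seen, 20 of 42 lay above 0 in the first (median -0.03) and 26 of 42 below 0 in the second (median -0.09). With all mice none was called, and 6 and 4 reached an unadjusted p under 0.05. In the first comparison these were Ctsc, Ctsl, Lamp2, Ctsd, Atp6v0d1 and Ctss. Other gates leaned to 1 side as well. In the multipotent gate 31 of 44 lay above 0 for tamoxifen and rapamycin against tamoxifen (median 0.11, 49.93% of all genes). In the B gate 30 of 44 lay below 0 for late rapamycin against tamoxifen (median -0.14). In the HSC gate 29 of 43 lay above 0 for tamoxifen and rapamycin against late rapamycin (median 0.06). Neutrophil progenitors were nearer to even, with 24 above and 19 below in both comparisons against tamoxifen. Of the further pathway genes, none was called by edgeR or DESeq2 in any gate or comparison. At an unadjusted p under 0.05 there were, in the 3 comparisons, 17, 19 and 22 of 280 pairs of other lysosomal genes and gates, 2, 24 and 20 of 247 pairs of autophagy genes, and 3, 7 and 4 of 104 pairs of TFEB regulators. Over all genes and gates the shares were 5.48%, 9.16% and 9.16%.

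A test of whether a treatment difference in another gate departed from that in the HSC gate called 1 gene, Ctsc. For late rapamycin against tamoxifen, its difference was larger in the neutrophil gate than in the HSC gate by 2.41 ± 0.52 (edgeR adjusted p = 0.0335). The same test called 0.14% of all genes in that gate, and no other gene of the 44 in that or any other gate or comparison. For late rapamycin against tamoxifen it called 0.0311% of all genes in the monocyte gate, 0.0389% in the erythroid gate and 0.00778% in the neutrophil progenitor gate. For tamoxifen and rapamycin against tamoxifen it called 0.00778% in the neutrophil gate and 0.0156% in the erythroid gate, and against late rapamycin 0.0311% in the neutrophil gate and 0.00778% in the B and erythroid gates, with 0% in the remaining gates. The neutrophil-gate levels were 12.5 and 8.52 CPM with tamoxifen, 16.4 and 10.9 with both drugs, and 125 and 15.8 with late rapamycin, so the call rests on late rapamycin replicate 1. Without that mouse the value was 0.95 (adjusted p = 0.8245), and without tamoxifen replicate 1 it was 1.41 (adjusted p = 1). With plain library sizes it was 2.11 (adjusted p = 0.121).

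That mouse carried most of the departures among these genes. Late rapamycin replicate 1 lay at least 1.5-fold above or below all 5 other mice in 29 and 10 of 340 gene and gate pairs with enough counts, against 0 to 3 above and 0 to 4 below for each of the others. In the neutrophil gate 7 of 43 genes (16.3%) lay above the others in it, against 6.66% of all genes: Map1lc3a, Ctsz, Ctsc, Ctsd, Ctsl, Ctsb and Atp6v1a. In the monocyte gate there were 8 of 43 (18.6%), against 3.13% of all genes: Ctsa, Ctss, Ctsc, Ctsd, Ctsl, Atp6v1a, Lamp2 and Gla. Neutrophil progenitors had 4 of 43 (9.3% against 3.15%) and the HSC gate 1 of 43 (2.33% against 1.62%), which was Ctsl. The B gate had 4 of 44 (9.09% against 3.93%) and the megakaryocyte gate 4 of 41 (9.76% against 2.4%). Below the others lay 2 of 43 in neutrophil progenitors (4.58% of all genes) and 1 of 43 in monocytes (3.56%). In the B gate there were 3 of 44 (9.22%) and in the megakaryocyte gate 4 of 41 (6.27%). In the remaining gates 0 lay below, against 0.461% to 4.2% of all genes. The Ctsl level of this mouse in the monocyte gate was 178 CPM, against 27.1 to 33.7 in the other 5 mice, and its Atp6v1a level in neutrophils was 405 against 144 to 169. Late rapamycin replicate 2 had 32.1 CPM of Ctsl and 414 CPM of Ctsc in monocytes, where replicate 1 had 1021 of the latter and the tamoxifen mice 298 and 271.

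Several other measures moved with it. Median UMIs per cell in its neutrophil gate were 3526, against 1746.5 to 2251 in the other mice. In its monocyte gate the 9 neutrophil markers summed to 3884 CPM against 365 to 607 in the others, while the 8 monocyte markers summed to 7089 (5914 to 7463) and the 9 macrophage markers to 125 (79.6 to 142). In its neutrophil gate the monocyte markers summed to 906 CPM against 659 to 706. These marker sums are without TMM, whose factor in the neutrophil gate was 0.494 for this mouse and 0.589 to 0.66 for the others. The part of these shifts in the gene levels was not tested.

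**Figure D4:**
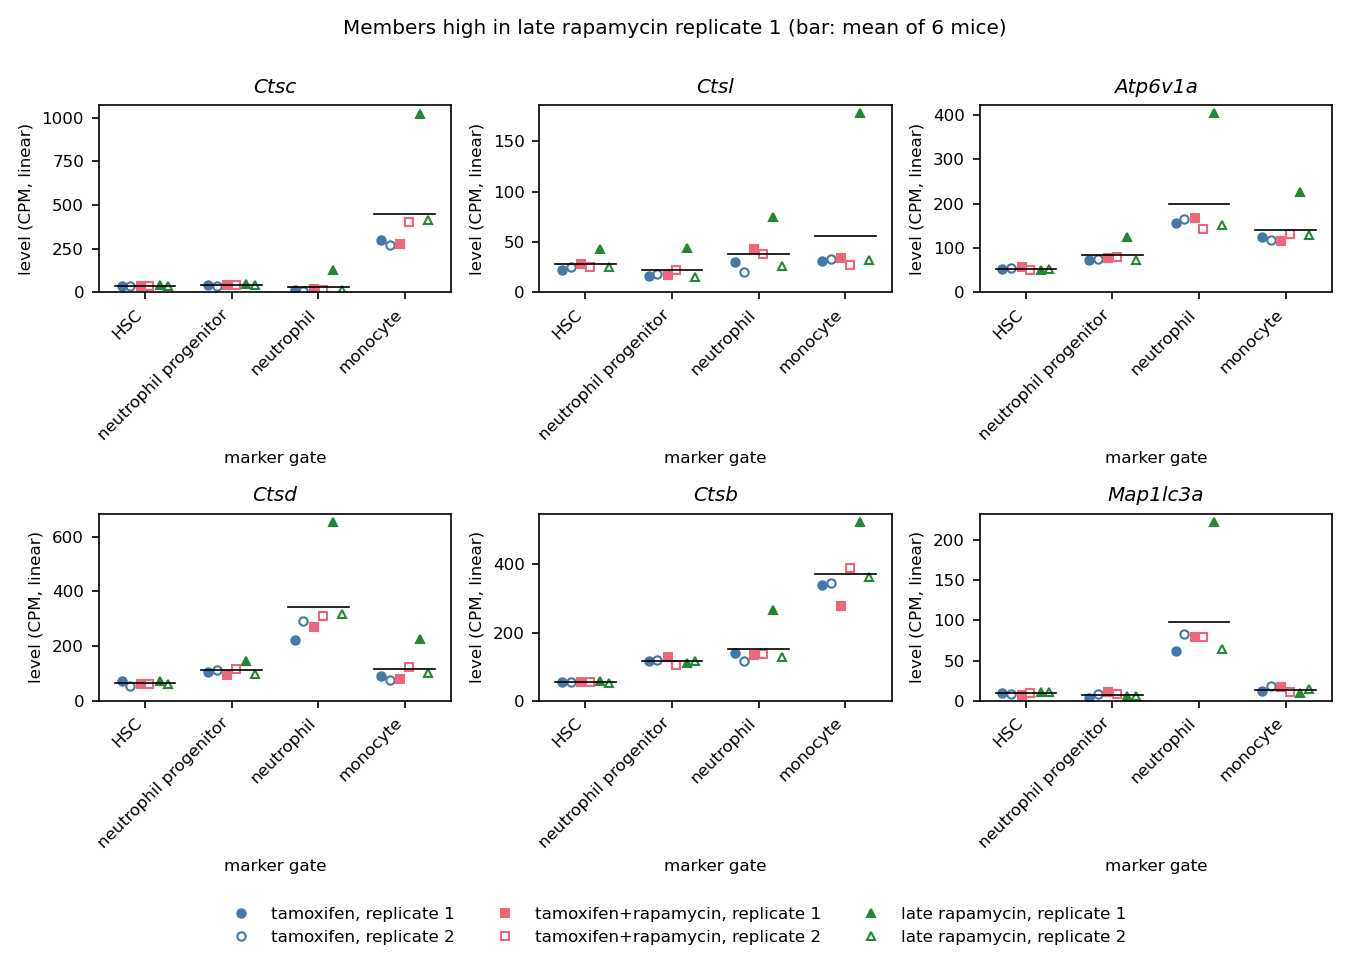
Levels (CPM, linear axes from 0) of 6 genes in each of the 6 mice in 4 gates, with filled symbols for day 1, open symbols for day 2 and a bar for the mean. The filled green triangle, late rapamycin replicate 1, lies above the other 5 mice for Ctsc in the neutrophil and monocyte gates (125 and 1021 CPM), while the open green triangle of the same treatment lies near the other mice.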

How the data were processed

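Gene counts and hashtag counts per cell barcode were deposited by the authors as filtered matrices of whole-number UMI counts. Per the file headers the matrices come from Cell Ranger 8.0.1, while version 7.0.0, with the mm10 build, stands in the submitters' processing notes. Whether intronic reads were counted is not given in the sources used here.

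Each barcode was given to a hashtag by an Otsu threshold on log10(count + 1) (scikit-image 0.26.0), and treatments were taken from the deposited hashtag table. Kept cells had 1 hashtag, a mitochondrial share of no more than 10%, and a minimum of 1000 UMIs from 500 genes. A cell entered a gate when at least a fixed number of its markers had a UMI (HSC 4 of 12 with no Flt3, multipotent 5 of 10, neutrophil progenitor 5 of 8, neutrophil 6 of 9, monocyte 4 of 8, B 4 of 10, erythroid 5 of 10, megakaryocyte 3 of 9), and cells in more than 1 committed gate were left out. Gates under 50 cells in a mouse were not tested. Counts were summed per mouse and gate.

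Sums were tested with edgeR 4.0.16 (R 4.3.3; TMM, filterByExpr, quasi-likelihood, Benjamini-Hochberg adjustment over all genes tested, threshold 0.05). Treatment fits held the day, and lineage fits the mouse. The replicate number marks the day on which 3 mice were processed together, per the labels, which is where the pairing comes from. DESeq2 1.42.0, plain library sizes, no count filter, stricter gates, no block, treatments by the label numbers and leaving out each mouse were alternatives. The scripts were tested on simulated data. No per-sample column was left unused (0).

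The genes and lists were chosen with earlier results of these data known. Named between lineages were up to 3 genes per role with the smallest p of the overall test, plus Tfeb, Tfe3 and Mitf. Named between treatments were all genes past the threshold and, in the HSC gate, the 4 with the smallest p per comparison, as values. Up to 3 were named per further list.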

Additional observations from a re-analysis of the deposited data

Results flagged for a closer look

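In 40 of 352 gene and gate pairs the highest or lowest of the 6 mice lay apart from the others by Dixon's criterion. Chance meets it in about 1 in 20 groups of normally distributed values, but these are CPM, some from few UMIs. The criterion was applied to these genes only, so no share of all genes stands beside the 40. Late rapamycin replicate 1 was the mouse concerned in 31 of the 40, and in 27 of those it was the highest. This mouse also departed over all genes by the 1.5-fold measure. Above the other mice lay from 0.374% (erythroid gate) to 6.66% (neutrophil gate) of all genes. Below them lay from 0.461% (erythroid gate) to 9.22% (B gate). All values below are CPM.

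Late rapamycin replicate 1 was highest for cathepsins in several gates. Ctsl was at 42.6 in the HSC gate, 23.2 in the multipotent gate, 44.0 in neutrophil progenitors and 177.9 in monocytes. Ctsc was at 125.1 in neutrophils, 1021 in monocytes and 10.98 in the erythroid gate. Ctsd was at 655.1 in neutrophils and 224.6 in monocytes, and in the erythroid gate it was lowest in this mouse, at 94.4. Ctsa was at 239.3 in monocytes, Ctsb at 265 in neutrophils, Ctss at 60.26 in the multipotent gate, and Ctsz at 347.6 in neutrophil progenitors and 81.4 in megakaryocytes.

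The same mouse was highest for Lamp2 in the HSC gate (143.5), the multipotent gate (132.8) and neutrophils (549.1). The pump subunit Atp6v1a was at 124.1 in neutrophil progenitors, 404.9 in neutrophils and 227 in monocytes. Hexa was at 40.56 in B cells, Gla at 31.15 in monocytes and Asah1 at 145.4 in neutrophils. Neu1 was at 82.47 in neutrophil progenitors and, as the lowest value, at 0 in megakaryocytes. Map1lc3a was at 222.5 in neutrophils, Map1lc3b at 211.5 in monocytes and Atg5 at 83.28 in neutrophil progenitors. Its lowest values were 21.55 for Ulk2 in neutrophil progenitors and 83.64 for Optn in the erythroid gate.

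Late rapamycin replicate 2 was highest for Mitf (70.14) and Wipi2 (52.8) in neutrophils, Map1lc3a in the multipotent gate (8.036) and Ctsh in megakaryocytes (2.462), and lowest for Atg7 in the erythroid gate (29.45). Tamoxifen replicate 2 was highest for Wipi1 (18.37) and Wipi2 (45.08) in neutrophil progenitors and lowest for Optn in neutrophils (75.7). Tamoxifen and rapamycin replicate 1 was lowest for Mitf in monocytes (60.4).

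The difference between late rapamycin and tamoxifen in Ctsc was larger in the neutrophil gate than in the HSC gate by 2.41 on the log2 scale (edgeR, n = 2 mice per treatment), and without late rapamycin replicate 1 this was 0.95.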

How the results depend on the processing

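Of the counts of genes called, 209 values under the alternatives stayed within 1.5 times the reported count and 36 did not. Of values for single genes, 1373 kept direction and side of the threshold, or their size, 89 lost their call, 5 gained one, 16 changed sign and 1 moved, a count of monocyte-gate genes above 0 (20, from 31, without late rapamycin replicate 1). For every value given here the cause was not tested.

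Without the replicate block (day for treatments, mouse for lineages) the treatment counts stayed at 0, and the lineage counts went to 6 higher and 6 lower in the multipotent gate, 15 and 13 in B cells, 17 and 16 in erythroid cells and 3 and 14 in megakaryocytes, with the rest equal in number. No count moved by over 1.5 times.

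Without the low-count filter, 1 gene and gate pair outside the HSC gate was called for tamoxifen and rapamycin against tamoxifen, 10 for late rapamycin against tamoxifen and 6 for tamoxifen and rapamycin against late rapamycin, with 1 in the HSC gate for the last. Calls over all genes outside the HSC gate rose as well, from 111 to 771 in the first comparison and from 280 to 1666 in the second. With plain library sizes the counts became 3 higher and 13 lower in the multipotent gate, 22 lower in neutrophil progenitors, 17 lower in neutrophils, 8 lower in monocytes, and 8 higher and 26 lower in erythroid cells, and the Ctsc call between gates was lost (0 genes). DESeq2 gave 4 higher in the multipotent gate and 16 lower in neutrophil progenitors. Stricter gates gave no megakaryocyte value, with under 50 cells in a mouse.

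Leaving out each mouse gave, for tamoxifen and rapamycin against tamoxifen, 0 in the HSC gate and 0 to 3 outside it. Late rapamycin against tamoxifen gave 0 to 1 and 0 to 49, and tamoxifen and rapamycin against late rapamycin 0 to 2 and 0 to 47. A mouse left alone in its treatment is assumed to vary like the others. The gate differences in effect gave 0 to 1, 0 to 11 and 0 to 11 genes, the upper values of the last 2 without late rapamycin replicate 2. Lower calls in neutrophils went from 2 to 4.

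With plain library sizes signs changed for Ctsz (-0.31), Atg12 (-8.564e-05) and Sqstm1 (-0.0364) in neutrophils, for Gabarapl2 (-0.035), Atg12 (-0.0297) and Sqstm1 (-0.0325) in monocytes, for Gabarapl2 in B cells (-0.0027), and for Gusb (-0.0845) and Gabarapl2 (-0.24) in erythroid cells, where DESeq2 gave -0.0168 for Gabarapl2. Outside the genes given by the naming rule, the same scaling turned Lipa (-0.62), Atg5 (-0.05) and Atg16l1 (-0.49) in neutrophils, Lipa (-0.05) and Atg5 (-0.10) in neutrophil progenitors, and Lipa (-0.04) and Wipi2 (-0.04) in erythroid cells. With treatments by the label numbers, Becn1 was at 0.58, Lipa at -0.44, Optn at -0.58 and Neu1 at 0.69 in the HSC gate. Gusb, late rapamycin against tamoxifen, went from 0.35 to -0.0714 without tamoxifen replicate 2, to 0.6242 without tamoxifen replicate 1 and to -0.0159 without late rapamycin replicate 2.

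Among the tested gates the megakaryocyte gate held the fewest cells, with 60 to 119 per mouse, and the fewest UMIs over all mice (3136069). The lowest UMI sum of a single mouse was in the B gate, at 304109, against 358105 in the megakaryocyte gate.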
